A study of Homo sapiens with 10 samples.

Results

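The transcripts of 10 epithelial keratin and cell junction genes were examined in human retinal pigment epithelial cells after knockdown of NEMP1 and on substrates of different stiffness. The genes were the keratins KRT8, KRT18, KRT7 and KRT19, the desmosome genes DSP and JUP, and the tight junction genes TJP1, OCLN, CLDN2 and CLDN4. They were found by gene symbol, and each matched 1 row, so that they made up 10 of the 40664 gene rows of the deposited count table. The cells were hTERT RPE-1, an established line immortalised with telomerase, and RNA was sequenced in 10 bulk libraries after removal of ribosomal RNA. The libraries formed 4 groups: 3 of siNemp1-treated cells and 3 of control cells on a stiff substrate of 120 kPa, and 2 of siNemp1-treated cells and 2 of control cells on a soft substrate of 10 kPa. The labels name siNemp1 as the knockdown by siRNA and the other group as control. The siRNA sequence, the treatment given to control cells, the time on the substrate and what a replicate number stands for were not given in the sources used here. All libraries came from 1 cell line, and the labels do not say whether replicates were separate cultures. The p-values therefore describe library-to-library spread, which may be technical. The design asks what loss of NEMP1, an inner nuclear membrane protein, does to these genes on each substrate, what stiffness does to them with and without NEMP1, and whether the knockdown effect depends on stiffness.

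Keratins are intermediate filament proteins that assemble from obligate pairs of a type I and a type II chain. KRT8 and KRT7 are type II keratins, KRT18 and KRT19 are type I keratins, and the KRT8 and KRT18 pair is the filament of simple epithelia, the retinal pigment epithelium included. Desmosomes tie keratin filaments of neighbouring cells together through desmosomal cadherins, plakoglobin (JUP) and desmoplakin (DSP), which binds the filaments. Tight junctions seal the space between cells with the membrane proteins occludin and the claudins, and the scaffold ZO-1 (TJP1) links them to actin.

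Total estimated counts were between 17949807 and 23797713 a library. NEMP1 was at 7.52, 6.70 and 4.11 CPM (counts relative to library size, scaled with TMM factors) in siNemp1 cells at 120 kPa, against 18.3, 14.1 and 14.1 CPM in control cells there. At 10 kPa it was at 8.22 and 7.63 CPM in siNemp1 cells, against 14.1 and 17.3 CPM in control cells. Averaged over stiffness NEMP1 fell by 1.16 on the log2 scale (standard error 0.18, edgeR adjusted p = 0.0442). On each substrate alone NEMP1 was not called in the same fit (edgeR adjusted p = 0.057 at 120 kPa and 0.803 at 10 kPa). Of 8 epithelial markers, KRT8, KRT18 and KRT7 were expressed, whereas KRT19, EPCAM, CDH1, CLDN4 and ESRP1 averaged under 1 CPM. EPCAM averaged 0.041 CPM and CDH1, the E-cadherin gene, 0.015 CPM, so defining markers of a classical epithelium were near 0 in cells labelled epithelial. CDH2, the N-cadherin gene, averaged 135.0 CPM. Of the pigment epithelium markers, MITF averaged 122.8 CPM, BEST1 72.1 CPM and OTX2 26.3 CPM, and RPE65, RLBP1 and TTR were near 0. Of 8 fibroblast markers 5 passed the filter on low counts, with a summed level of 314 to 736 CPM in siNemp1 cells at 120 kPa, 690 to 908 CPM in control cells at 120 kPa, 765 to 767 CPM in siNemp1 cells at 10 kPa and 948 to 951 CPM in control cells at 10 kPa. THY1 made up most of that sum, COL3A1 was at 0 in every library, and the part of these markers in the results was not tested. The summed endothelial markers were at 1.42 to 3.07 CPM, the smooth muscle markers at 216 to 318 CPM and the immune markers at 494 to 1168 CPM, of which the lysosomal gene CD68 made up most while the leukocyte gene PTPRC averaged 1.12 CPM. Because these are bulk samples, fewer cells of a kind and less RNA per cell cannot be told apart.

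Of the 10 genes, KRT19 was too low to measure. Its estimated counts were 0 to 10 a library, with 3 or fewer in 5 of 10 libraries and none in 2, and no library reached the 0.461 CPM that the filter asks for. In siNemp1 cells KRT19 was at 0.393, 0.147 and 0.043 CPM at 120 kPa and at 0 and 0.202 CPM at 10 kPa, against 0.136, 0.386 and 0.421 CPM and 0.368 and 0 CPM in control cells. In the libraries with no count, a limit of 3 counts allows up to 0.126 CPM in siNemp1 cells and up to 0.162 CPM in control cells, for counting error only, and no fold change is given. The other 9 genes passed the filter and were tested. CLDN4, a barrier-forming claudin, was at the edge of measurement with 6 to 33 counts a library, and it passed through 4 control libraries and 2 siNemp1 libraries that reached 0.461 CPM. OCLN had 58 to 146 counts and CLDN2 52 to 209 counts, whereas KRT8 had 17465 to 28723.

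Levels were compared between genes per length. Divided by the length of the principal transcripts, the mean level over all libraries was 507 to 614 CPM per kb for KRT8 and 396 to 436 CPM per kb for KRT18. KRT7 was at 22.1 CPM per kb, JUP at 20.4 to 22.3 CPM per kb and DSP at 7.33 CPM per kb. The tight junction genes were lower, with TJP1 at 2.59, CLDN2 at 2.18 to 2.35, OCLN at 0.593 to 2.18 and CLDN4 at 0.189 to 0.429 CPM per kb. KRT19, too low to measure, had a nominal 0.151 CPM per kb. Neighbours in this order that overlapped over libraries, or by the transcript length used, were KRT8 and KRT18, KRT7 and JUP, TJP1, CLDN2 and OCLN, and OCLN and CLDN4. CLDN4 also overlapped with the nominal level of KRT19. KRT7, KRT8 and KRT18 together took 0.139% to 0.196% of all counts in a library.

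**Figure D1:**
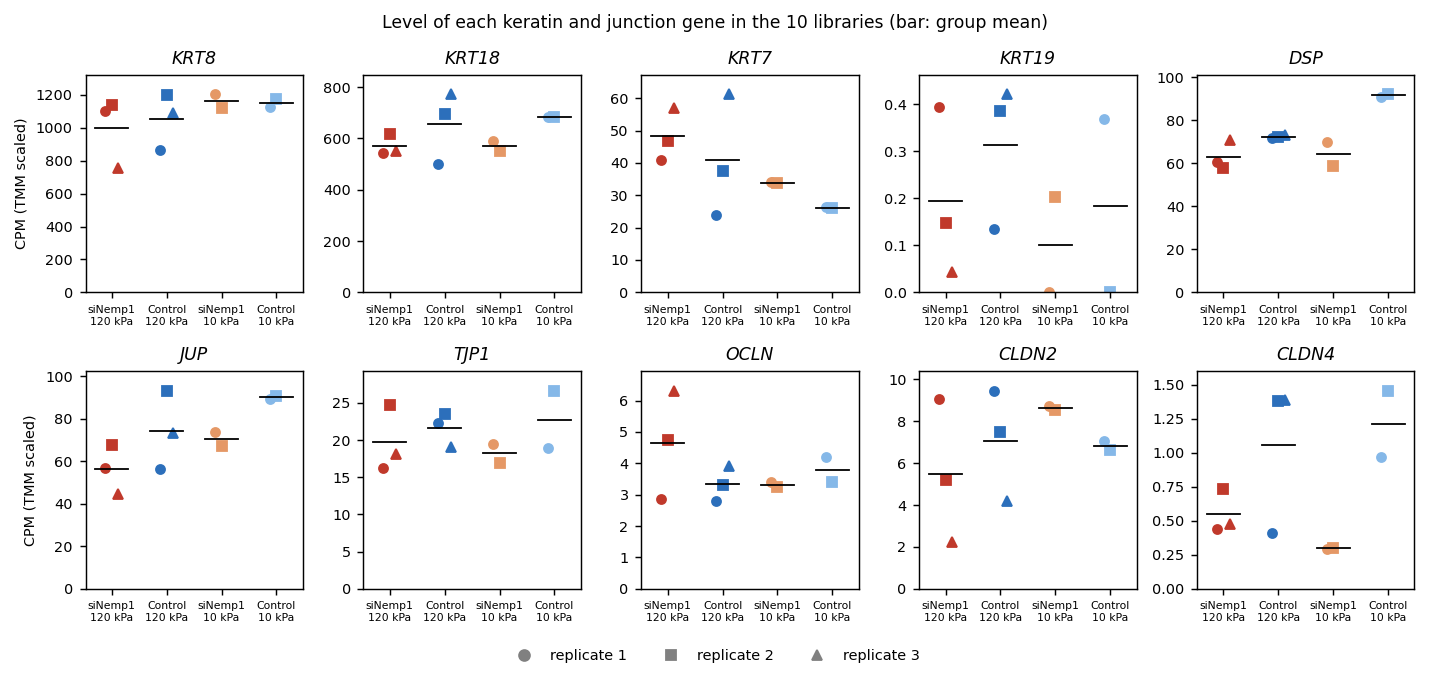
Level in CPM of each of the 10 genes in every library (1 point a library), with siNemp1 groups left of their control groups and the group mean as a bar. DSP lies lower in all 5 siNemp1 libraries than in all 5 control libraries, and KRT19 stays under 0.461 CPM throughout.

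Averaged over both substrates, siNemp1 cells had lower levels of DSP and CLDN4, but whether these differences passed the test depended on the fit. In the model with 1 mean per group and no pairing, 0 of 9 tested genes were called at an edgeR adjusted p under 0.05, against 1.29% of all 13990 tested genes (0.858% higher and 0.429% lower), and 3 of the 9 had an unadjusted p under 0.05. Libraries with the same replicate number deviated together at 120 kPa, and once replicate number entered the model as a block 2 of 9 were called, DSP and CLDN4, both lower. The block also pairs the libraries at 10 kPa, where such deviations correlated at only 0.016. In the fit with the block 10.8% of all tested genes were called, 6.58% higher and 4.17% lower. DESeq2 called DSP, 1 of the 8 to which it gave an adjusted p, beside 9.32% of all genes with one. The median log2 difference of the 9 genes was -0.23 without the block, beside -0.003 over all tested genes.

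DSP, desmoplakin, was lower in every siNemp1 library than in every control library. It was at 60.5, 57.8 and 70.6 CPM in siNemp1 cells at 120 kPa and at 70.1 and 58.6 CPM in siNemp1 cells at 10 kPa. In control cells DSP was at 71.7, 72.2 and 73.0 CPM at 120 kPa and at 91.0 and 92.1 CPM at 10 kPa. The highest siNemp1 library, at 70.6 CPM, was close to the lowest control library, at 71.7 CPM. DSP was the only one of the 9 tested genes with no overlap between the 5 siNemp1 and the 5 control libraries, a pattern that 1.97% of all tested genes showed in the lower direction and 2.54% in the higher direction. Over the 5 libraries of each treatment DSP averaged 63.5 ± 6.32 CPM in siNemp1 cells and 80.0 ± 10.6 CPM in control cells (SD, n = 5 each). The averaged log2 difference was -0.35 ± 0.09 (SE, edgeR adjusted p = 0.0757) without the block and -0.36 ± 0.08 (edgeR adjusted p = 0.0193) with it. Over all alternatives the value stayed between -0.42 and -0.30 and the adjusted p between 0.00962 and 0.353. With the block the call was lost when the pair numbered 2 at 120 kPa was left out (edgeR adjusted p = 0.0593).

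The DSP difference was larger on the soft substrate in value, but the difference between substrates did not pass its test. At 10 kPa DSP averaged 64.4 ± 8.16 CPM in siNemp1 cells and 91.5 ± 0.718 CPM in control cells (SD, n = 2 each). At 120 kPa it averaged 63.0 ± 6.74 CPM in siNemp1 cells and 72.3 ± 0.657 CPM in control cells (SD, n = 3 each). The log2 difference was -0.20 ± 0.11 (SE) at 120 kPa and -0.51 ± 0.14 (SE) at 10 kPa. The first of these minus the second was 0.31 ± 0.18 (SE, edgeR adjusted p = 1).

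JUP, plakoglobin, which sits in desmosomes and adherens junctions, was lower on average in siNemp1 cells but did not pass the test in either fit. It was at 56.8, 67.4 and 44.4 CPM in siNemp1 cells at 120 kPa, against 56.3, 93.2 and 73.1 CPM in control cells there, and the groups overlapped. At 10 kPa it was at 73.9 and 67.2 CPM in siNemp1 cells, against 89.4 and 90.8 CPM in control cells, with no overlap. The averaged log2 difference of JUP was -0.38 ± 0.15 (SE, edgeR adjusted p = 0.196) without the block and -0.38 ± 0.13 (edgeR adjusted p = 0.0954) with it, and the adjusted p ranged from 0.00264 to 0.483 over the alternatives.

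CLDN4 showed the largest log2 difference of the 9 genes, on the fewest counts. It was at 0.442, 0.734 and 0.476 CPM in siNemp1 cells at 120 kPa, against 0.407, 1.38 and 1.39 CPM in control cells there. At 10 kPa it was at 0.294 and 0.303 CPM in siNemp1 cells, from 7 and 6 counts, against 0.967 and 1.46 CPM in control cells, from 21 and 27 counts. The first control library at 120 kPa, with 9 counts, lay among the siNemp1 libraries, so the groups overlapped there. The averaged log2 difference was -1.47 ± 0.41 (SE, edgeR adjusted p = 0.0915) without the block and -1.41 ± 0.38 (edgeR adjusted p = 0.0401) with it. Over the alternatives the value stayed between -1.66 and -1.24 and the adjusted p between 0.0176 and 0.345, and DESeq2 gave no adjusted p for this gene. The call rests on single pairs: with the block it was lost when the pair numbered 2 at 120 kPa was left out (edgeR adjusted p = 0.102) or the pair numbered 3 (edgeR adjusted p = 0.0747).

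**Figure D2:**
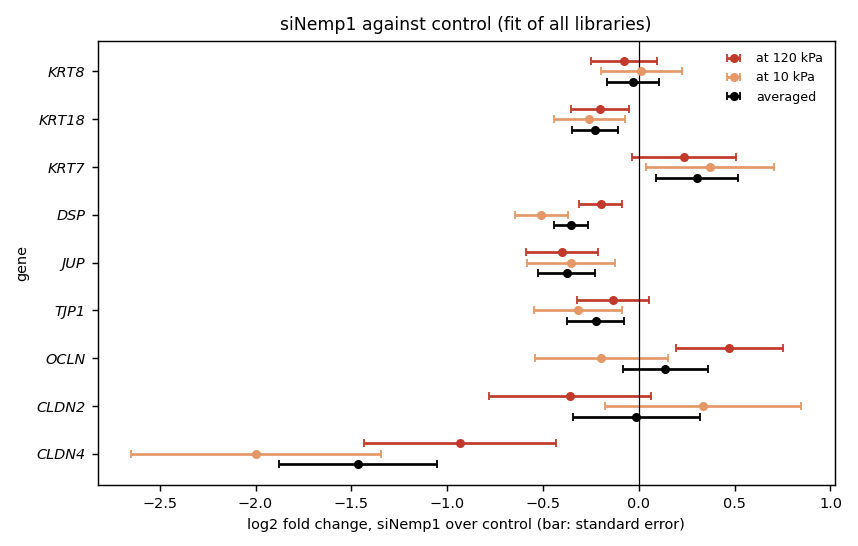
Log2 difference of siNemp1 over control for the 9 tested genes (points, with bars of 1 standard error) at 120 kPa, at 10 kPa and averaged, without the replicate block. The averaged values of DSP, -0.35, and CLDN4, -1.47, lie below 0 by more than their standard errors, while KRT8 lies near 0 in each.

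The sequence around the annotated starts of DSP and CLDN4, the called genes of the blocked fit, of JUP and of the abundant KRT8 is shown because these genes carry the comparison above. Each run holds the 250 bases before and the 50 bases from a RefSeq start on GRCh38.p14, 5′ to 3′ on the gene's strand, for 1 start a gene. Of the 10 genes, 7 had such a sequence in the table used, and KRT7, KRT18 and KRT19 are named only. Capitals mark 4 motifs, each searched on both strands: the GC box GGGCGG, the TATA box TATAAA, the AP-1 motif TGANTCA and the E-box CACCTG.
DSP, chr6:7541421-7541720, plus strand: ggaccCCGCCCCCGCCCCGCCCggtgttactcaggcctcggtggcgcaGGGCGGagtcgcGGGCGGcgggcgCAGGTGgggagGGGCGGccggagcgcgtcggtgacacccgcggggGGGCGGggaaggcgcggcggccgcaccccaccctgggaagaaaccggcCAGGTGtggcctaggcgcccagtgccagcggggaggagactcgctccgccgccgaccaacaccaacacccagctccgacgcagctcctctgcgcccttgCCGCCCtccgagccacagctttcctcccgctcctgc
JUP, chr17:41786662-41786961, minus strand: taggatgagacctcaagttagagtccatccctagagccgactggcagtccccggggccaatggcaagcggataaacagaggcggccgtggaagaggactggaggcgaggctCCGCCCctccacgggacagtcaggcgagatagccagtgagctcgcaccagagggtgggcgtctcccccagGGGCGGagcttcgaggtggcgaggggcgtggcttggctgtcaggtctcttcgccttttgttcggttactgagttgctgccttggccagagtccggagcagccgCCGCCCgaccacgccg
CLDN4, chr7:73830746-73831045, plus strand: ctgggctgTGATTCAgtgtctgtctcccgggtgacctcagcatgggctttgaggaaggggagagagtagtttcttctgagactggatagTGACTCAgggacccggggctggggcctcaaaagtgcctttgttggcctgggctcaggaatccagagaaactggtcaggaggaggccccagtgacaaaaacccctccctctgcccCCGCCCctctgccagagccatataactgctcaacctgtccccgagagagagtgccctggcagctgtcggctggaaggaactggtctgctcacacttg
KRT8, chr12:52926420-52926719, minus strand: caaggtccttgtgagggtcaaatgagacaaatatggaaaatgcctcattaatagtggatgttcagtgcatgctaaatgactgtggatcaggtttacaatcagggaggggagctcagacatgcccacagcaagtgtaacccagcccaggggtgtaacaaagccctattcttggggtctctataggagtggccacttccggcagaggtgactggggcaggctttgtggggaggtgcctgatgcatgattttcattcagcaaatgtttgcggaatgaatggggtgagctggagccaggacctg
The DSP window held 8 GC boxes, of which a pair share 1 base, and 2 E-boxes. The JUP window held 3 GC boxes, and the CLDN4 window 1 GC box and 2 AP-1 motifs. The KRT8 window held none of the 4 motifs. This window lies inside the annotated span of KRT8, from 52897187 to 52949954, and which start the transcripts used was not measured. A further JUP window at chr17:41785927-41786226, not shown, held 0 GC boxes and 2 E-boxes. Over all 35116 RefSeq windows of the same length, 45% held a GC box, 11.5% a TATA box, 7.71% an AP-1 motif and 20.6% an E-box. The windows are a description and carry no measurement of binding.

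The keratins of the KRT8 and KRT18 pair did not pass the test in the fit of all libraries. KRT8 was at 1101, 1139 and 755 CPM in siNemp1 cells at 120 kPa, against 866, 1202 and 1088 CPM in control cells there. On the soft substrate KRT8 was at 1204 and 1120 CPM in siNemp1 cells, against 1130 and 1174 CPM in control cells, and the groups overlapped on both substrates. The averaged log2 difference of KRT8 was -0.03 ± 0.14 (SE, edgeR adjusted p = 0.931). KRT18 was at 544, 617 and 551 CPM in siNemp1 cells at 120 kPa, against 500, 697 and 772 CPM in control cells there. On the soft substrate KRT18 was at 591 and 551 CPM in siNemp1 cells, against 683 CPM in both control libraries. Over both substrates KRT18 averaged 571 ± 31.9 CPM in siNemp1 cells and 667 ± 101 CPM in control cells (SD, n = 5 each), with an averaged log2 difference of -0.23 ± 0.12 (SE, edgeR adjusted p = 0.327).

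The count ratio of KRT18 to KRT8 follows the partners of 1 filament within a library. This ratio was chosen after the values were seen and was not tested. In siNemp1 cells at 120 kPa the ratio was 0.494, 0.542 and 0.730, against 0.577, 0.580 and 0.710 in control cells there. The 10 kPa libraries had ratios of 0.491 and 0.492 in siNemp1 cells, against 0.604 and 0.581 in control cells. The ratio was thus lower in siNemp1 cells on the soft substrate and overlapped on the stiff one, where the libraries numbered 3 of both treatments stood above the rest. The ends of KRT8 and KRT18 overlap on opposite strands of chromosome 12 by 1084 bases, of which 525 are exonic in both, and the strandedness of the libraries was not given in the sources used here, so reads from that stretch cannot be told apart. Annotated pseudogenes of KRT8, with 50 rows in the table, held 0.888% to 1.42% of the KRT8 count, and the 68 rows for KRT18 held 0.167% to 0.382% of the KRT18 count. How many reads of KRT8 and KRT18 could also have come from these copies was not tested.

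KRT7, the type II keratin of ductal and glandular epithelia, was higher in siNemp1 cells in 4 of 5 same-numbered pairs, without passing the test. It was at 40.8, 46.9 and 56.9 CPM in siNemp1 cells at 120 kPa, against 23.9, 37.5 and 61.2 CPM in control cells there. On 10 kPa it was at 34.1 and 33.7 CPM in siNemp1 cells, against 26.4 and 26.1 CPM in control cells. The groups did not overlap on the soft substrate and overlapped on the stiff one. The averaged log2 difference of KRT7 was 0.30 ± 0.21 (SE, edgeR adjusted p = 0.471) without the block and 0.34 ± 0.13 (edgeR adjusted p = 0.122) with it.

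**Figure D3:**
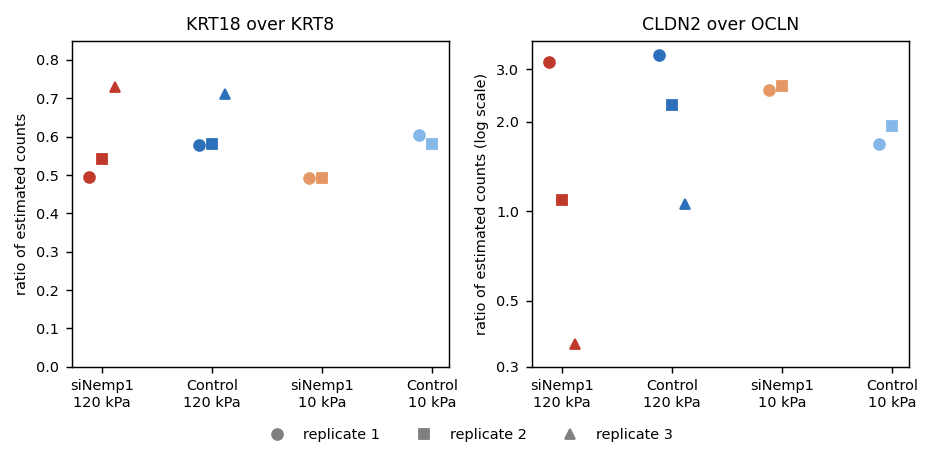
Count ratios of KRT18 to KRT8 and of CLDN2 to OCLN in each library (1 point a library), with siNemp1 groups left of their control groups and a log axis for the second ratio. The KRT18 to KRT8 ratio is 0.491 and 0.492 in siNemp1 cells and 0.604 and 0.581 in control cells at 10 kPa, and overlaps at 120 kPa.

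Among the tight junction genes TJP1 overlapped between treatments on both substrates. TJP1 was at 16.3, 24.7 and 18.1 CPM in siNemp1 cells at 120 kPa, against 22.3, 23.5 and 19.1 CPM in control cells there, and at 19.5 and 17.0 CPM in siNemp1 cells at 10 kPa, against 18.9 and 26.6 CPM in control cells. Its averaged log2 difference was -0.23 ± 0.15 (SE, edgeR adjusted p = 0.436).

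OCLN, occludin, and CLDN2, the claudin that forms a cation and water pore, ran opposite to each other. OCLN was at 2.85, 4.74 and 6.32 CPM in siNemp1 cells at 120 kPa, against 2.81, 3.31 and 3.92 CPM in control cells there. At 10 kPa OCLN was at 3.40 and 3.23 CPM in siNemp1 cells, against 4.19 and 3.40 CPM in control cells, so the nearest libraries were equal after rounding. CLDN2 was at 9.05, 5.18 and 2.25 CPM in siNemp1 cells at 120 kPa, against 9.46, 7.49 and 4.17 CPM in control cells there. At 10 kPa CLDN2 was at 8.72 and 8.53 CPM in siNemp1 cells, against 7.04 and 6.63 CPM in control cells. Thus at 120 kPa every siNemp1 library had more OCLN and less CLDN2 than the control library of its number, and at 10 kPa the order was turned round for both genes. The OCLN pair numbered 1 at 120 kPa was nearly tied, from 57.9 estimated counts in siNemp1 cells and 62.4 in control cells. The log2 difference at 120 kPa minus that at 10 kPa was 0.67 ± 0.45 for OCLN and -0.70 ± 0.66 for CLDN2 (SE, edgeR adjusted p = 1 for both), so the dependence on stiffness did not pass its test for either. Such opposite same-numbered pairs were found for 2 of the 9 genes, beside 4.65% of all tested genes.

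The libraries of 1 treatment at 120 kPa also differed among themselves in these genes. The count ratio of CLDN2 to OCLN, also chosen after the values were seen, was 3.17, 1.09 and 0.357 in siNemp1 cells at 120 kPa, against 3.35, 2.28 and 1.06 in control cells there, whereas at 10 kPa it was 2.56 and 2.64 in siNemp1 cells, against 1.69 and 1.94 in control cells. The libraries numbered 3 were lowest for CLDN2 and highest for OCLN and KRT7 in both treatments at 120 kPa. The share of counts from mitochondrial genes moved with them: it was 0.806%, 0.589% and 0.545% in siNemp1 cells at 120 kPa and 1.33%, 1.10% and 0.684% in control cells there, against 1.15% to 1.22% in the 4 libraries at 10 kPa. Its part in the values was not tested. CLDN2 lies on chromosome X wholly within MORC4, which is on the opposite strand and shares no exonic base with it. CLDN2 shares 341 exonic bases with RIPPLY1, also on the opposite strand, which held 41.8 counts over all libraries, against 1439 for CLDN2.

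On each substrate alone no gene of the set, nor NEMP1 itself, was called in the model of all 10 libraries. At 120 kPa 0 of 9 were called, and 0% of all tested genes were called, while 2413 genes had an unadjusted p under 0.05, none of them among the 9, and DESeq2 called 6.47% of the genes to which it gave an adjusted p, and 0 of the 7 of the set that had one, which leaves out CLDN4 and OCLN. Under the replicate block 0 of 9 were called at 120 kPa, against 8.75% of all tested genes. At 10 kPa 0 of 9 were called, and 0% of all tested genes were called, with 2 of the 9 and 850 of all genes under an unadjusted p of 0.05 in edgeR, and 0.0959% of the genes with an adjusted p but 0 of the 9 called by DESeq2. In a fit of the 4 libraries at 10 kPa alone, 5 of the 9 were called: DSP, JUP, KRT18 and CLDN4 were lower and KRT7 was higher in siNemp1 cells, against 17.3% of all genes tested in that fit (8.1% higher and 9.19% lower). With 7 and 6 counts in siNemp1 cells, CLDN4 passed the filter of that fit only through the control libraries, where it was high. Its call there gives no support. The log2 difference in that fit was -0.52 ± 0.07 for DSP (SE, edgeR adjusted p = 9.35e-05), and the adjusted p of the other 4 lay between 0.000504 and 0.0149. The common dispersion, the spread between libraries beyond counting error, was 0.00423 in that fit and 0.0387 in the fit of all libraries, so these calls rest on the closeness of 2 libraries a group. At 10 kPa 5 of the 9 were lower in both siNemp1 libraries than in both control libraries, beside 28.5% of all tested genes, and 2 were higher in both, beside 28.8%. The 5 were KRT18, DSP, JUP, CLDN4 and, by less than rounding shows, OCLN, and the 2 were KRT7 and CLDN2. At 120 kPa DSP alone of the 9 was lower in all 3 siNemp1 libraries than in all 3 control libraries, beside 6.95% of all tested genes, and 0 were higher, beside 10.9%.

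Without the block, and with all 10 libraries fitted, no gene of the set was called for stiffness at an edgeR adjusted p under 0.05. Averaged over treatments 0 of 9 were called for 120 against 10 kPa, and 0% of all tested genes, although 2200 genes had an unadjusted p under 0.05 and DESeq2 called 4.71% of the genes to which it gave an adjusted p, and 0 of the 7 of the set that had one (CLDN4 and OCLN had none). In control cells 0 of 9 were called, beside 0.0143% of all tested genes. In siNemp1 cells 0 of 9 were called, beside 0% of all tested genes, with 1655 genes under an unadjusted p of 0.05 and 1.19% of the genes with an adjusted p called by DESeq2, 0 of them among the 6 of the set that had one (CLDN2, CLDN4 and OCLN had none). Over both treatments 0 of the 9 were without overlap between all 120 kPa and all 10 kPa libraries, beside 0.843% of all tested genes lower and 0.622% higher. For the difference between the knockdown effects 0 of 9 were called, beside 0.00715% of all tested genes.

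KRT7 and DSP had the widest stiffness differences relative to their errors. From the values above, KRT7 in siNemp1 cells was higher in all 3 libraries at 120 kPa than in both at 10 kPa, and in control cells the first library at 120 kPa lay below both at 10 kPa. The log2 difference of KRT7 for 120 against 10 kPa, averaged over treatments, was 0.57 ± 0.22 (SE, edgeR adjusted p = 0.253) without the block and 0.29 ± 0.14 (edgeR adjusted p = 0.47) with it. That block also ties libraries at 10 kPa to those of the same number at 120 kPa, a tie that no label gives, and the deviations of same-numbered libraries at 10 kPa correlated at only 0.016. Without the first control library at 120 kPa, KRT7 passed the test at 0.71, beside 330 of 13934 tested genes (318 higher and 12 lower). Over the alternatives the adjusted p of KRT7 ranged from 0.000991 to 0.611. DSP in control cells was lower in all 3 libraries at 120 kPa than in both at 10 kPa, with a log2 difference of -0.34 ± 0.12 (SE, edgeR adjusted p = 0.991), while in siNemp1 cells it overlapped between substrates at -0.03 ± 0.13 (SE). DSP was the only 1 of the 9 without overlap in control cells, where 11.9% of all tested genes were lower in this way and 10.3% higher. KRT7 and CLDN4 were higher without overlap in siNemp1 cells, beside 18.2% of all tested genes, and 0 were lower, beside 15.5%. JUP had an averaged stiffness difference of -0.30 ± 0.15 (SE, edgeR adjusted p = 0.346), and the other 6 genes lay between -0.31 and 0.34. The control libraries enter both the knockdown and the stiffness comparisons, as do the siNemp1 libraries, so the values of DSP in control cells at 10 kPa bear on both.

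**Figure D4:**
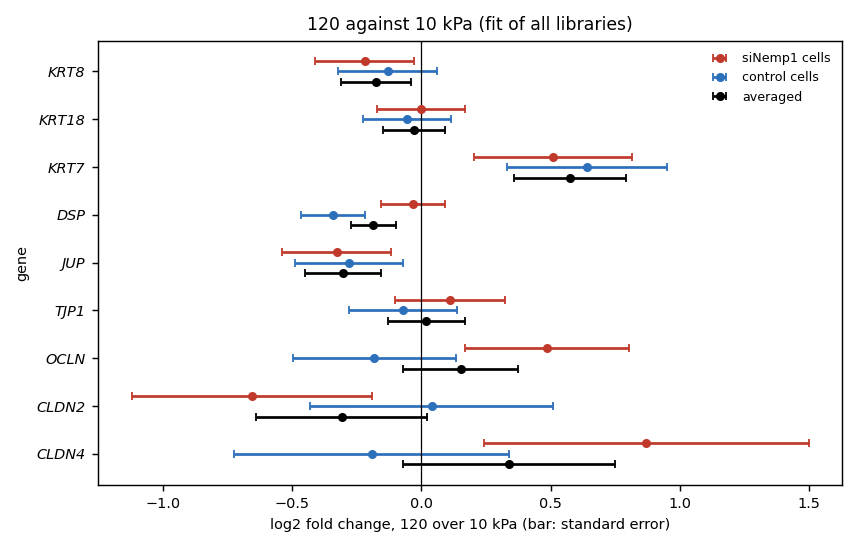
Log2 difference of 120 over 10 kPa for the 9 tested genes (points, with bars of 1 standard error) in siNemp1 cells, in control cells and averaged, without the replicate block. KRT7 lies above 0 in each, at 0.57 when averaged, and DSP lies at -0.03 in siNemp1 cells and -0.34 in control cells.

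Genes around the set were read from 8 lists of keratins, intermediate filaments, junction, polarity and epithelial genes, holding 121 symbols. Of these, 118 had a row and 64 were tested. For the averaged knockdown 2 of these 64 rose without the block and 0 fell, which is 3.12% beside 1.29% of all tested genes. Both were tight junction genes: CLDND1, a claudin domain protein, rose by 0.62 ± 0.10 on the log2 scale (SE, edgeR adjusted p = 0.0442), and CLDN12, a claudin, by 0.52 ± 0.11 (edgeR adjusted p = 0.0499). Both calls were lost with DESeq2 size factors in edgeR (edgeR adjusted p = 0.0511 for CLDND1 and 0.0552 for CLDN12), where 0 genes in all were called, and over 18 alternatives the adjusted p ranged from 3.27e-05 to 0.332 for CLDND1 and from 0.00201 to 0.345 for CLDN12. The direction held in each, at log2 differences of 0.55 to 0.66 for CLDND1 and 0.45 to 0.59 for CLDN12. CLDND1 was at 58.2, 55.1 and 70.5 CPM in siNemp1 cells at 120 kPa, against 32.5, 30.0 and 36.5 CPM in control cells there, and at 38.8 and 40.3 CPM in siNemp1 cells at 10 kPa, against 31.4 and 30.6 CPM in control cells. Its groups did not overlap on either substrate. CLDN12 was at 74.3, 65.6 and 78.6 CPM in siNemp1 cells at 120 kPa, against 54.6, 40.8 and 42.0 CPM in control cells there, and at 55.1 and 56.0 CPM in siNemp1 cells at 10 kPa, against 39.7 and 45.8 CPM in control cells, also with no overlap on either substrate.

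Under the replicate block 6 of the 64 list genes were called for the averaged knockdown, 3 higher and 3 lower, which is 9.38% beside 10.8% of all tested genes. Besides CLDND1 and CLDN12, CTNNB1, which encodes beta-catenin, a protein of the same family as JUP, rose by 0.24 ± 0.07 on the log2 scale (SE, edgeR adjusted p = 0.0456). DST, a plakin linker of intermediate filaments and hemidesmosomes, fell by 0.41 ± 0.08 on the log2 scale (SE, edgeR adjusted p = 0.015), CTNND1, p120-catenin, by 0.34 ± 0.08 (edgeR adjusted p = 0.0264), and JAM2, a junctional adhesion molecule, by 0.36 ± 0.10 (edgeR adjusted p = 0.0374). DST, CTNND1, JAM2 and CTNNB1 were not called without the block, where their adjusted p lay between 0.0569 and 0.235. None of the 5 tested other keratins, 4 other intermediate filaments and 7 other desmosome genes was called in either fit, with median log2 differences of 0.16, -0.34 and -0.07 without the block, beside -0.003 over all tested genes. The most abundant tested genes of those lists were KRT80 at 46.1 CPM, VIM at 2384 CPM and DSG2 at 111 CPM, averaged over all libraries. In the lists of linkers, tight junction, adherens junction, polarity and epithelial programme genes, the most abundant were DST at 174 CPM, JAM3 at 101 CPM, CTNNA1 at 553 CPM, DLG1 at 66.5 CPM and SPINT2 at 18.9 CPM. At 120 kPa with the block 4 of the 64 list genes were called, which is 6.25% beside 8.75% of all tested genes. They were CLDND1, CLDN12, DST and NECTIN4, a nectin of adherens junctions. NECTIN4 was at 0.688, 1.22 and 3.89 CPM in siNemp1 cells there, against 0.181, 0.386 and 0.674 CPM in control cells. At 10 kPa it was at 0.054 to 0.276 CPM. Only the siNemp1 libraries and the highest control library at 120 kPa reached the 0.461 CPM of the filter. NECTIN4 was thus tested mainly through the group where it was high, and its call gives no support.

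**Figure D5:**
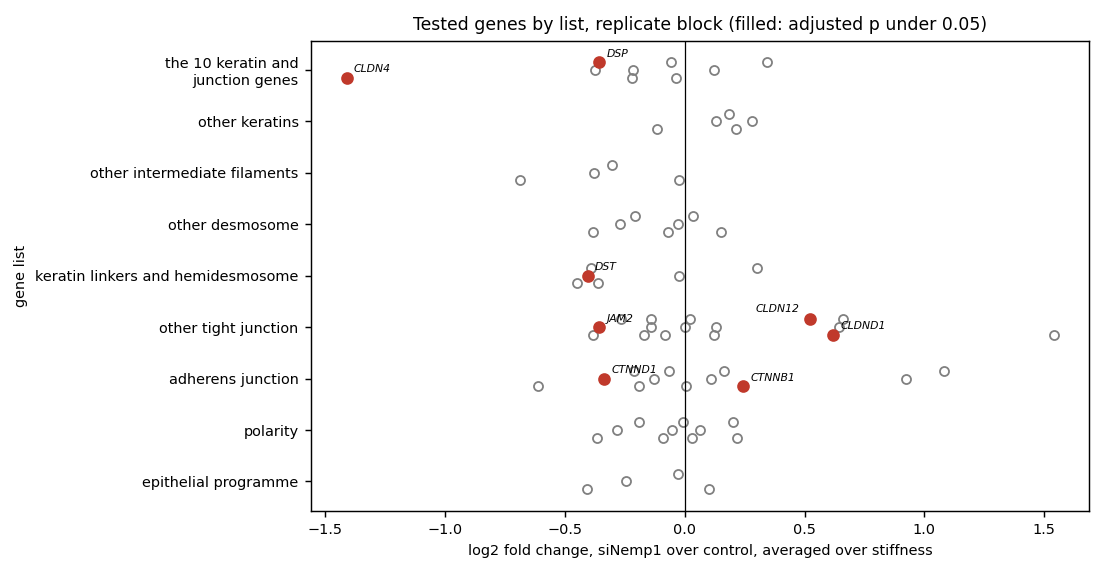
Log2 difference of siNemp1 over control, averaged over stiffness and fitted with the replicate block, for each tested gene of the 10 keratin and junction genes and of the 8 lists. Filled points passed an adjusted p under 0.05; among them CLDN4 at -1.41 and DSP at -0.36 lie lower, and CLDND1 at 0.62 and CLDN12 at 0.52 lie higher.

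The likeness of each gene's pattern to other genes is given as Pearson's r over the 10 libraries, of log2 CPM after 1 was added to the CPM. It is a description, since libraries share group and depth. The added 1 damps differences at low levels, such as those of CLDN4. Among 9537 tested genes of at least 5 CPM, KRT7 was most like BLVRB at r of 0.985 and KRT8 most like SERPINE2 at 0.984. JUP was most like SMPD1 at 0.984 and next VIM, which encodes the mesenchymal filament protein vimentin, at 0.98. KRT18 was most like SYMPK at 0.98, DSP like AHCTF1 at 0.967, CLDN2 like HFE at 0.99, OCLN like ZDHHC18 at 0.961, CLDN4 like FASN at 0.953 and TJP1 like BHLHE40 at 0.846. Among the 9 genes themselves the highest r was 0.888, for KRT18 with CLDN4, followed by 0.822 for KRT8 with JUP, and the lowest was -0.91, for OCLN with CLDN2. KRT8 with KRT18, the filament partners, had an r of 0.536, and DSP with JUP, the desmosome partners, 0.527.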

How the data were processed

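Expected counts per gene (estimated counts that need not be whole) for the 10 libraries were deposited by the authors in 1 table without a sample-wise normalisation. Per the submitters' processing notes, FastQC 0.11.9, Trimmomatic 0.33, Salmon (version written there as 1.80) and edgeR were used with the builds GRCh38 and hg38. Per the labels' protocols, total RNA was depleted of ribosomal RNA and primed with random hexamers. Here these values were rounded and tested with edgeR 4.0.16 (R 4.3.3) in a robust quasi-likelihood fit of 1 mean per group over all 10 libraries, with TMM scaling, filterByExpr (minimum count 10), 6 residual degrees of freedom, two-sided tests and Benjamini-Hochberg adjustment over 13990 genes, called at an adjusted p under 0.05. The standard error is the size of the log2 difference over the square root of F. CPM are TMM scaled. The members and lists were chosen with earlier results of these data known, and all members are named. From each list the called genes were named, up to 4, with its most abundant tested gene; 1 listed gene is not reported here. Likeness names the tested gene of at least 5 CPM with the highest r, and for JUP the next. Deviations of same-numbered libraries from their group means correlated at 0.608, 0.305 and 0.482 at 120 kPa. At 10 kPa they correlated at 0.016, which is 1 value for both numbers because each group had 2 libraries. The numbers were therefore taken to pair libraries at 120 kPa, from the data and not from the labels. A fit with that number as a block (4 residual degrees of freedom) is given where it changes a call. The block covers all 10 libraries, so it also ties those at 10 kPa by number. Alternatives were that block, DESeq2 1.42.0, other scalings, no filter, only the groups compared and leaving out each library. Added after seeing the data were the block at 120 kPa alone and the block without 1 pair. Promoters are RefSeq's for GRCh38.p14 and gene positions are from GENCODE on GRCh38. The fits were tested on simulated data. Depth limits precision: 3 counts are 0.126 to 0.165 CPM. Floors cover counting error only, whereas the standard errors include the spread between libraries.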

Additional observations from a re-analysis of the deposited data

Results flagged for a closer look

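OCLN and CLDN2 stood out because every same-numbered pair of siNemp1 and control libraries differed one way at 120 kPa and the other way at 10 kPa. The OCLN pair numbered 1 at 120 kPa was nearly tied, at 2.85 CPM in siNemp1 cells and 2.81 CPM in control cells. Its direction came from the TMM factors and was reversed by library total alone. For OCLN all 3 pairs were higher in siNemp1 cells at 120 kPa and both pairs were lower at 10 kPa, and the log2 difference at 120 kPa minus that at 10 kPa was 0.67 ± 0.45 (SE, edgeR adjusted p = 1). For CLDN2 all 3 pairs were lower in siNemp1 cells at 120 kPa and both were higher at 10 kPa, and the same quantity was -0.70 ± 0.66 (SE, edgeR adjusted p = 1). With the replicate block it was 0.64 ± 0.38 for OCLN and -0.79 ± 0.32 for CLDN2 (SE, edgeR adjusted p = 1 for both). The same pattern of pairs was found in 650 of 13990 tested genes, which is 4.65%.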

How the results depend on the processing

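For the 63 member differences (9 genes in 7 comparisons) 1017 values were computed under alternatives. Of these, 949 kept their direction and their side of the threshold, where DESeq2 values without an adjusted p were counted as kept. A further 20 kept their direction and passed the test, and 48 changed sign, the largest of these main values being 0.236 in size. For the averaged knockdown the count of called members was 2 with the replicate block (DSP, CLDN4), 1 with DESeq2 (DSP), 2 with no filter on low counts (CLDN4, JUP) and 0 to 1 when 1 library was left out (CLDN4 without control replicate 1 at 120 kPa, DSP without siNemp1 replicate 3 at 120 kPa). With the block and 1 pair at 120 kPa left out, it was 4 without the pair numbered 1 (DSP, CLDN4, JUP, KRT18), 0 without that numbered 2 and 2 without that numbered 3 (DSP, KRT7). Over all genes those fits called 2493 of 13860, 600 of 13879 and 1592 of 13744, in that order. At 10 kPa the count of called members was 5 in the fit of the 4 libraries alone, beside 2308 of 13345 genes. These include CLDN4, which passed the filter of that fit only through the control libraries. For stiffness averaged over treatments it was 1 with no filter, beside 839 of 23547 genes. It was 0 to 1 when 1 library was left out (KRT7 without control replicate 1 at 120 kPa, beside 330 of 13934 genes). The pairing changed no other call of a member. Over all genes the averaged knockdown gave 180 calls (120 higher, 60 lower), 1504 with the block, 961 with DESeq2, 0 with DESeq2 size factors in edgeR, 71 with upper-quartile scaling (35 higher, 36 lower), 649 with no filter and 0 to 666 when 1 library was left out.

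With the replicate block the stiffness difference was 0.01 for TJP1 in control cells and -0.075 for OCLN on average. With the block and the pair numbered 3 left out, the averaged knockdown difference was 0.016 for CLDN2 and 0.056 for KRT8. KRT8 at 10 kPa was -0.001 in the fit of those libraries alone, and TJP1 -0.002 for averaged stiffness with upper-quartile scaling. When 1 library was left out, the knockdown difference ranged from -0.042 to 0.639 for KRT7 at 120 kPa, and for KRT8 from -0.2 to 0.06 at 120 kPa, -0.031 to 0.05 at 10 kPa and -0.095 to 0.041 on average. The averaged knockdown ranged from -0.304 to 0.161 for CLDN2 and -0.016 to 0.256 for OCLN. Stiffness in control cells ranged from -0.238 to 0.31 for CLDN2, -0.462 to 0.199 for CLDN4, -0.195 to 0.108 for KRT18 and -0.293 to 0.205 for TJP1. In siNemp1 cells it ranged from -0.154 to 0.095 for DSP, -0.06 to 0.042 for KRT18 and -0.085 to 0.223 for TJP1. Averaged stiffness ranged from -0.101 to 0.054 for KRT18, -0.004 to 0.277 for OCLN and -0.092 to 0.159 for TJP1. The difference between the knockdown effects ranged from -0.212 to 0.148 for JUP, -0.108 to 0.189 for KRT18, -0.411 to 0.28 for KRT7, -0.21 to 0.038 for KRT8 and -0.092 to 0.402 for TJP1. The cause was not tested. With 2 libraries a group at 10 kPa, counts of 6 to 33 for CLDN4 and 0 to 10 for KRT19 limit what can be read from these genes.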
